A study of Mus musculus with 6 samples.

Results

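Glutathione transferases (Gst), aldehyde dehydrogenases (Aldh) and aldo-keto reductases (Akr) were examined in mouse yolk sac at embryonic day 9.5. Members were all genes whose single symbol in the array's annotation begins with Gst and a cytosolic or kappa class letter, with Aldh, or with Akr and a digit, leaving out the retinoic acid enzymes Aldh1a1 and Aldh1a2. This gave 53 of the 19938 genes that have a probe set under a single symbol: 19 Gst, 19 Aldh and 15 Akr genes. Each gene was read from its brightest probe set, the one with the highest mean over all 6 arrays, and the further probe sets of Gstm3 and Aldh3b3 are given beside it. Aldh1b1 had only 1 probe set under its symbol. A further 7 probe sets list several symbols of the alpha and pi Gst classes or of the Aldh3b genes and were not used. The 3 mutant samples were yolk sacs of GW182gt/gt embryos, which by this notation are homozygous for a gene-trap allele of Tnrc6a, the gene of the microRNA silencing protein GW182. The 3 wild-type samples were yolk sacs of littermates. Each array was hybridised with total RNA of 1 embryo's yolk sac. The labels call both genotypes mixed without explaining the word, and no source used here states the strain or where in Tnrc6a the trap sits.

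Glutathione transferases join the tripeptide glutathione to reactive, electron-poor compounds, which makes them soluble and ready for export. Aldehyde dehydrogenases oxidise aldehydes to acids, and most aldo-keto reductases reduce aldehydes and ketones to alcohols with NADPH. In the yolk sac the visceral endoderm takes up maternal protein and lipid and carries out many liver-like tasks before the liver forms. Several of these genes, above all of the alpha and mu Gst classes, are known in liver as targets of the stress factor Nrf2, which binds antioxidant response elements in their regulatory DNA.

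The promoter windows of 3 members, chosen with results of these data known, are shown first, as RefSeq gives them for GRCm38.p6. Each is 300 bases long around the start of the gene and written in the direction of transcription. None of these 3 genes passed the adjusted test between genotypes. Gstm3 and Gstm5 are mu-class genes on chromosome 3 whose mutant means lay on opposite sides of wild type, and Aldh1b1, on chromosome 4, differed most. Capitals mark 2 motifs searched on both strands, the core of the antioxidant response element (TGACNNNGC) and the GC box (GGGCGG, read as CCGCCC on the other strand). No 2 matches overlap.
Gstm3 (chr3:107969125-107969424, minus strand): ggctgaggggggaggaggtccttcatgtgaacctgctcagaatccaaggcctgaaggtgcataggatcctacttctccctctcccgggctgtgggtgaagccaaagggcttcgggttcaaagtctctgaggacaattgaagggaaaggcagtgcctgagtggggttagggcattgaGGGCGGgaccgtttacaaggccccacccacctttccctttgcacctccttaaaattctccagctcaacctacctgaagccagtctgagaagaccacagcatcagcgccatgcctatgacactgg
Gstm5 (chr3:107895604-107895903, plus strand): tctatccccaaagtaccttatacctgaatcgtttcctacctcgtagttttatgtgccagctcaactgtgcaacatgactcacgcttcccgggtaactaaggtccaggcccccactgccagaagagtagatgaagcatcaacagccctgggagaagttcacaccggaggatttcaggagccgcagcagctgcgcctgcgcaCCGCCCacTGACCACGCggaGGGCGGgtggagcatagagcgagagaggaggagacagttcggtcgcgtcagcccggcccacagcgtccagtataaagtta
Aldh1b1 (chr4:45798772-45799071, plus strand): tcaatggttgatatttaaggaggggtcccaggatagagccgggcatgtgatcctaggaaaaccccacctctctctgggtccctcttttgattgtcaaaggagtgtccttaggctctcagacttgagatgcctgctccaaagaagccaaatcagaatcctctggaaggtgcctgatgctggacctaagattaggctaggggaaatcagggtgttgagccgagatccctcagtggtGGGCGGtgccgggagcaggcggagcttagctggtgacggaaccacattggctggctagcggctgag

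The element core occurred in the Gstm5 window, at bases 209 to 217 of the 300, between a pair of GC boxes. In the windows of Gstm3 and Aldh1b1 these letters were not found, and each held 1 GC box. Over all 32851 mouse promoter windows of this length, 12.4% held the element core and 35.7% the GC box. Of the 53 members, 44 had at least 1 window in the table, and the core occurred in 6 of these, Gsta3, Gstm5, Gstm7, Aldh9a1, Akr1c19 and Akr1cl. By window these were 11.3% of 53 windows, close to the share over all windows. The GC box occurred in 23 of the 53 member windows, or 43.4%, beside the 35.7% over all windows. Whether these shares differ was not tested.

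The deposited values are log2 signals of Mouse Gene 1.0 ST arrays, with array medians of 5.19 to 5.22. Signals of different probe sets depend on their probes and are not set against each other here. The Tnrc6a signals of mutants 1 to 3 were 7.81, 5.33 and 5.20, against 8.40, 7.62 and 8.29 in wild types 1 to 3. The library labelled mutant 1 thus goes against its label, as it lies above wild type 2. The 12 visceral endoderm markers had similar averages in all arrays, 10.8 to 11.0 in the mutants and 10.8 to 10.9 in wild type. Markers of trophoblast, decidua and parietal endoderm averaged 6.70 to 7.58 in the mutants and 6.72 to 8.32 in wild type, with wild type 2 at the top. Primitive erythroid markers averaged 10.32, 9.64 and 10.27 in mutants 1 to 3, against 10.41, 10.33 and 10.43 in wild types 1 to 3. Every mutant average thus lay below every wild-type average, by little in the library labelled mutant 1 and by the most in mutant 2. Of these 9 markers, 5 did not overlap, all lower in the mutants, beside 3.38% of all tested probe sets, and 0 passed the adjusted test. All 9 endothelial markers had a higher mean in the mutants, with a median difference of 0.28, but only 3 of them did not overlap. They averaged 7.93, 8.11 and 8.38 in mutants 1 to 3, against 7.73, 8.08 and 7.80 in wild types 1 to 3. Wild type 2 thus lay above the library labelled mutant 1. Xist, which is high in female cells, read 9.63, 3.74 and 10.0 in the mutants and 9.87, 3.58 and 3.90 in wild type. In such whole-tissue RNA, fewer cells of a type and less RNA per cell cannot be told apart.

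No member differed between the genotypes after adjustment over the whole array. Of the 53 members, 39 had a mean signal at or above the limit for testing (4.29, the 30th percentile of probe sets with a symbol), namely 16 Gst, 15 Aldh and 8 Akr genes. Among these, limma called 0 at an adjusted p under 0.05, as it called 0% of all 16387 tested probe sets. At an unadjusted p under 0.05 there was 1 member lower in the mutants, Aldh1b1, and 0 members were higher, against 1.28% of all tested probe sets lower and 2.25% higher. The genotypes did not overlap for 2 members that were higher in the mutants, Gstp3 and Aldh3b1, and for 1 that was lower, Aldh1b1. Over all tested probe sets these shares were 5.17% and 3.38%.

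Most members lay close to 0. Of the 39, 34 differed by less than 0.2 on the log2 scale, or 87.2%, beside 88.3% of all tested probe sets. Mutant minus wild type was above 0 for 27 members and below 0 for 12, a share of 69.2% above 0 beside 52.4% of all tested probe sets. The median difference was 0.095 for Gst, 0.032 for Aldh and 0.054 for Akr members, beside 0.0063 over all tested probe sets. The median standard error of a single member's difference was 0.11.

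**Figure D1:**
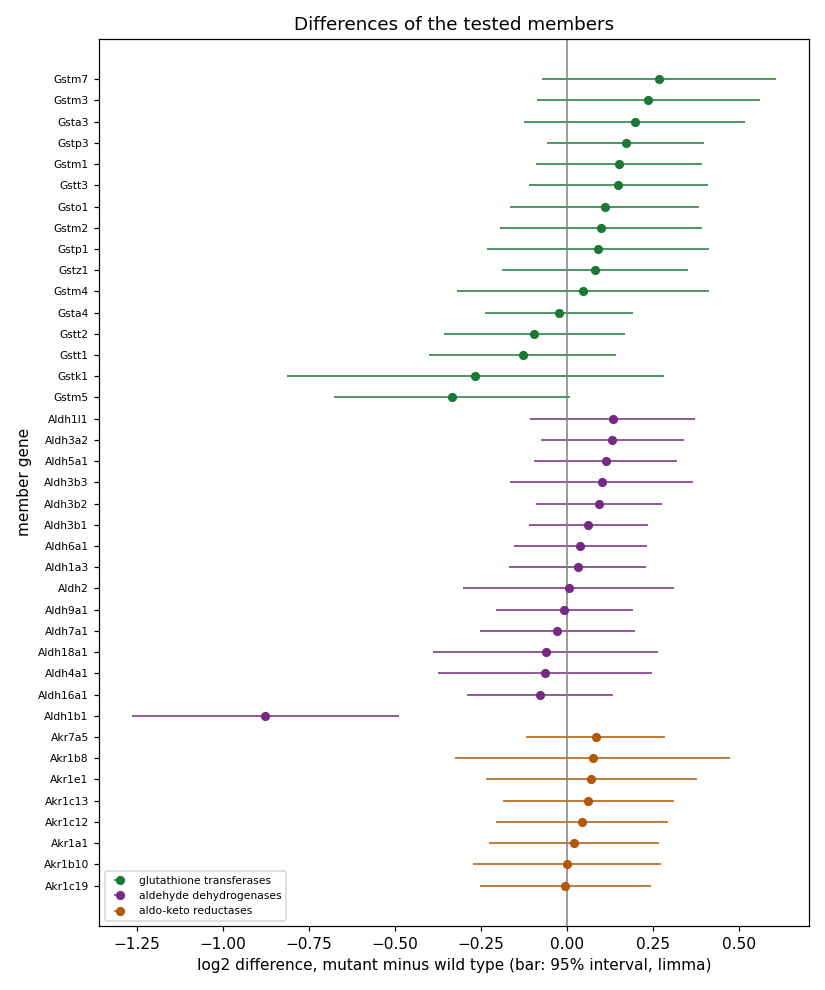
Log2 difference, mutant minus wild type, of the 39 tested members (points) with 95% intervals from limma (bars), by family from the top: 16 Gst, 15 Aldh and 8 Akr genes. The interval of Aldh1b1, at −0.88, lies wholly below 0, and those of the other 38 genes reach 0.

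Aldh1b1 stood lowest among the members. It encodes a mitochondrial aldehyde dehydrogenase that is closely related to Aldh2 and oxidises acetaldehyde and other short aldehydes. Its log2 signal was 6.87 in the library labelled mutant 1 and 6.40 in both mutants 2 and 3, against 7.37 in wild type 1, 7.24 in wild type 2 and 7.69 in wild type 3. All 3 mutant arrays lay below all 3 wild-type arrays, and the library labelled mutant 1, with its wild-type-like Tnrc6a signal, was the nearest to them. The means were 6.56 ± 0.27 in the mutants and 7.43 ± 0.23 in wild type (SD, n = 3 each). This is a log2 difference of −0.88 (SE 0.17, 95% interval −1.26 to −0.49), or 1.84-fold lower. By p it was number 8 of the 16387 tested probe sets, with an unadjusted limma p of 0.000944 and an adjusted p of 0.999. The exact two-sided permutation test gave p = 0.1, the smallest that 3 against 3 arrays allow. Without the library labelled mutant 1 the difference was −1.03, and without wild type 3 it was −0.75. The part that the erythroid and endothelial marker differences have in this value was not tested.

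Members for other mitochondrial aldehydes lay closer to 0. Whether they differ from Aldh1b1 in their response was not tested. Aldh2, the main acetaldehyde dehydrogenase, read 7.80, 7.94 and 8.16 in the mutants and 7.89, 7.81 and 8.17 in wild type. Its groups overlapped throughout, with a difference of 0.0056 (95% interval −0.30 to 0.31). Aldh18a1, which makes the pyrroline precursor of proline from glutamate, differed by −0.061, and Aldh4a1, which turns that intermediate back into glutamate, by −0.064. Aldh6a1, of valine breakdown, differed by 0.039. Aldh7a1, of lysine breakdown, read 11.31, 11.36 and 11.14 in the mutants and 11.36, 11.18 and 11.36 in wild type. It differed by −0.027, with an interval of −0.25 to 0.20. Aldh5a1, which oxidises succinic semialdehyde from GABA, read 5.65, 5.61 and 5.43 in the mutants against 5.43, 5.42 and 5.50 in wild type, a difference of 0.11 (SE 0.089, adjusted p = 0.999).

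Among the remaining aldehyde dehydrogenases the differences ran from −0.077 for Aldh16a1 to 0.13. Aldh1l1, the cytosolic enzyme that oxidises formyl-tetrahydrofolate, and Aldh3a2, the fatty aldehyde dehydrogenase of the endoplasmic reticulum, both differed by 0.13 (SE 0.10 and 0.089). Aldh3a2 read 9.32, 9.37 and 9.15 in the mutants and 9.18, 9.18 and 9.07 in wild type, so mutant 3 overlapped with wild type. Aldh9a1, an enzyme of carnitine synthesis, differed by −0.0067. Aldh1a3, the retinoic acid enzyme kept in the family, had a signal near the limit for testing and differed by 0.032. Aldh3b1, Aldh3b2 and Aldh3b3, all on chromosome 19, differed by 0.063 (SE 0.074), 0.093 (SE 0.079) and 0.10 (SE 0.11), each with an adjusted limma p of 0.999. Aldh3b1 did not overlap between genotypes, but only just: the lowest mutant and the highest wild type both read 4.43. For Aldh3b3 the probe sets disagreed, as a dimmer one differed by −0.15 and the dimmest, below the limit for testing, by −0.029.

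Of the mu class, whose 7 genes all lie on chromosome 3, 5 of 6 tested members were above 0 and Gstm5 was below. Gstm3 has a pair of probe sets under its symbol. The chromosome was taken from the gene identifier, and where in the genome the probes of either set lie was not checked. At the brighter probe set Gstm3 read 9.04, 9.53 and 9.12 in the mutants and 9.11, 8.99 and 8.88 in wild type. The library labelled mutant 1 lay within the wild-type range there, and the difference was 0.24 (SE 0.14), or 1.18-fold higher. At the other one it read 7.99, 8.76 and 8.21 in the mutants and 7.81, 7.82 and 7.88 in wild type. Here all mutant arrays lay above all wild-type arrays, by the least in the library labelled mutant 1, and the difference was 0.48 (SE 0.18), or 1.40-fold higher. The unadjusted limma p was 0.129 at the brighter and 0.0310 at the other probe set, with an adjusted p of 0.999 for both. The signals of the pair correlated over the arrays (Pearson r = 0.91 over 6 arrays), and both were highest in mutant 2. Among the wild-type arrays their order was opposite, falling from wild type 1 to 3 at the brighter and rising at the other. Without mutant 2 the differences were 0.090 and 0.26.

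Gstm5 lay on the other side. It read 7.91, 7.76 and 8.22 in the mutants, against 8.31, 8.09 and 8.48 in wild type. Mutant 2 was the lowest array and mutant 3 lay within the wild-type range. The difference was −0.33 (SE 0.15, 95% interval −0.68 to 0.0095), with an unadjusted p of 0.0551 and an adjusted p of 0.999 by limma. Gstm7 read 5.42, 5.69 and 5.14 in the mutants and 5.06, 5.09 and 5.29 in wild type. Mutant 2 was again at the end of the range, now the upper one, and the difference was 0.27 (SE 0.15, adjusted p = 0.999). It was 0.13 without mutant 2 and 0.41 without mutant 3.

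Of the other mu members, Gstm1 read 10.18, 10.45 and 10.11 in the mutants against 10.08, 10.08 and 10.12 in wild type, a difference of 0.15 (SE 0.10). The wild-type arrays lay within a narrow band and mutant 2 stood above the rest. Without mutant 2 the difference was 0.051. Gstm2 differed by 0.099 and Gstm4 by 0.048. Gstm6 was below the limit for testing, at 3.86, 4.14 and 3.84 in the mutants and 3.86, 3.11 and 3.70 in wild type. Its difference of 0.39 was not in the main fit, and wild type 2 was its lowest array. Mu transferases resemble each other in sequence, and whether probes of 1 gene also bind the mRNA of another was not tested.

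**Figure D2:**
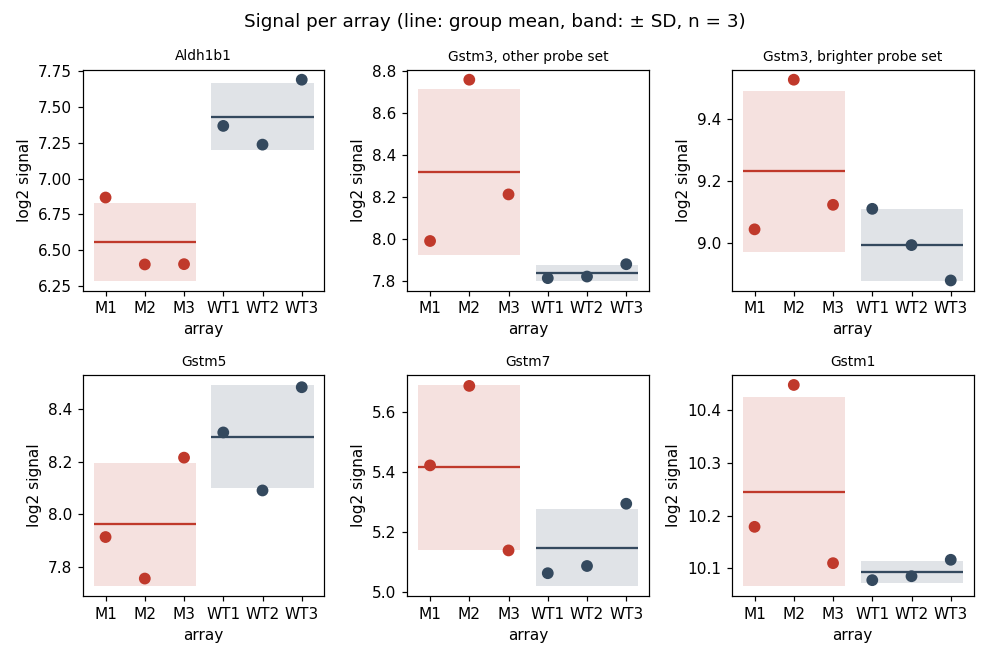
Log2 signal of Aldh1b1, of both Gstm3 probe sets and of Gstm5, Gstm7 and Gstm1 in the 3 mutant (M, left) and 3 wild-type (WT, right) arrays; points are arrays, lines group means and bands ± SD. The mutants lie apart from wild type for Aldh1b1 and for the less bright Gstm3 probe set, and M2 is at the end of the range for the 4 mu-class genes.

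The other transferase classes were mixed in sign. In the alpha class Gsta3 differed by 0.20 (SE 0.14). It read 5.36, 5.81 and 5.42 in the mutants and 5.21, 5.31 and 5.48 in wild type, with mutant 2 on top. Without mutant 2 the difference was 0.059. With Xist as a covariate it was 0.30, with an unadjusted limma p of 0.0282 and an adjusted p of 0.999. This was not particular to Gsta3. In the same fit the unadjusted limma p was 0.0308 for Gstm7, 0.0402 for Gstm5 and 0.00892 for the less bright Gstm3 probe set. It was under 0.05 for 706 of all 16387 tested probe sets there. Gsta4, which conjugates the lipid peroxidation product hydroxynonenal, differed by −0.023. In the pi class Gstp1 read 9.57, 9.84 and 10.05 in the mutants and 9.57, 9.85 and 9.77 in wild type, with overlapping groups and a difference of 0.091 (SE 0.14). Gstp3 read 4.67, 4.37 and 4.44 in the mutants against 4.31, 4.36 and 4.30 in wild type. Its groups did not overlap, but its mean lay near the limit for testing, and the difference of 0.17 (SE 0.098) had an unadjusted p of 0.122 and an adjusted p of 0.999 by limma.

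In the theta class Gstt3 differed by 0.15, Gstt1 by −0.13 and Gstt2 by −0.094. Gsto1 of the omega class, a thiol transferase that reduces dehydroascorbate, differed by 0.11, and Gstz1 of the zeta class, an isomerase of tyrosine breakdown, by 0.082. Gstk1, the kappa-class enzyme of mitochondria and peroxisomes, had the largest standard error of the 39 tested members. It read 5.48, 5.98 and 6.34 in the mutants and 6.08, 6.55 and 5.98 in wild type. The difference of −0.27 (SE 0.23) was about as large as its error.

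Much of the size of the median Gst difference came with mutant 2. This array had the highest signal in 9 of 16 Gst members, or 56.2%, beside 17.1% of all tested probe sets, and in 5 of 6 mu-class members. The median Gst signal relative to the wild-type mean was 0.018, 0.21 and 0.011 in mutants 1 to 3, against −0.075, −0.0044 and 0.045 in wild types 1 to 3. Without mutant 2 the median difference of the Gst members was 0.030, with 10 of 16 still above 0, and without mutant 3 it was 0.17. Mutant 2 also stood apart in cell type markers, in the same array as this Gst shift. Its median over 9 primitive erythroid markers was −0.90 relative to the wild-type mean, against −0.11 and −0.15 in the library labelled mutant 1 and mutant 3. All 9 of these markers had a lower mean in the mutants. The median of mutant 2 over 12 visceral endoderm markers was 0.13, the highest of the 6 arrays, where the others lay between −0.057 and 0.051. Over 11 markers of trophoblast, decidua and parietal endoderm it was 0.0076, against −0.35 and −0.13 in the library labelled mutant 1 and mutant 3. Over 10 mesenchyme and mesothelium markers it was 0.27, against −0.077 and −0.0071. In both of these lists wild type 2 was higher, at 0.82 and 0.35. The part of these marker lists in the Gst values was not tested. For Aldh members the median in mutant 2 was 0.051, and for Akr members it was 0.18.

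**Figure D3:**
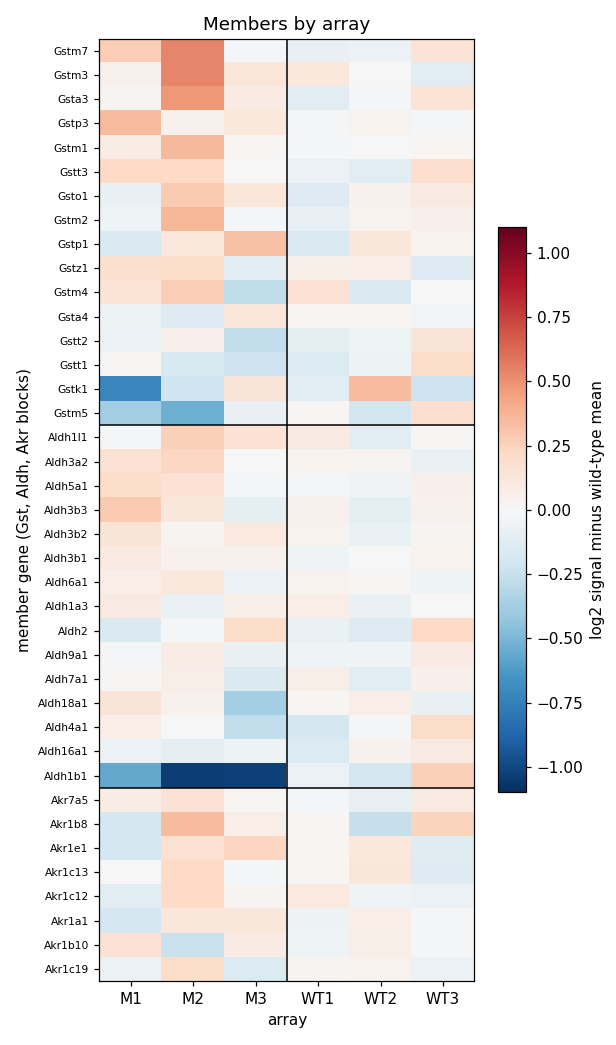
Log2 signal of each of the 39 tested members minus its wild-type mean (colour, red above and blue below) in the 3 mutant (M) and 3 wild-type (WT) arrays, with black lines between families and genotypes. The darkest blue is Aldh1b1 in M2 and M3, and red cells gather in the M2 column of the Gst block.

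**Figure D4:**
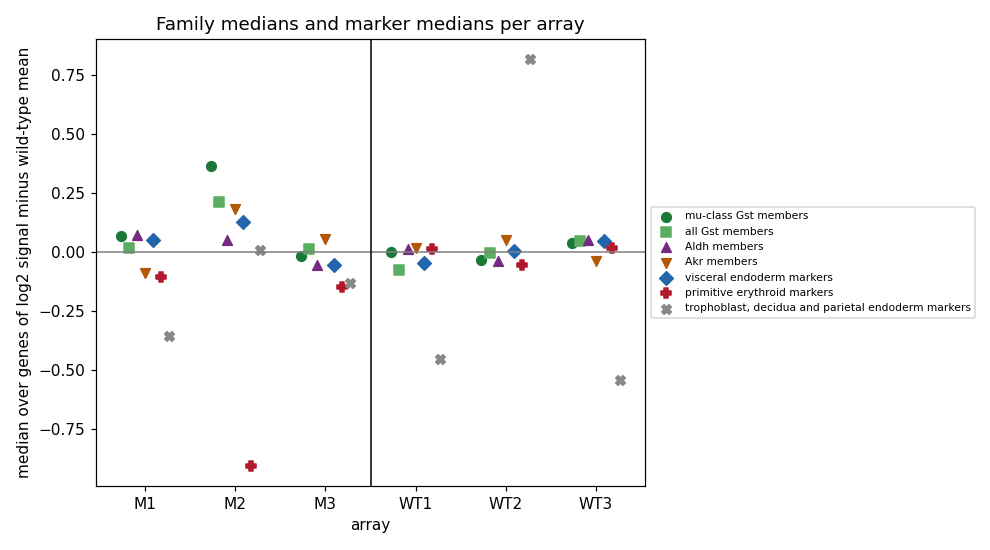
Median over genes of the log2 signal minus the wild-type mean, per array, for Gst, mu-class Gst, Aldh and Akr members and for 3 lists of cell type markers. M2 holds the highest median of all Gst members, 0.21, and the lowest erythroid median, −0.90, and WT2 the highest median of trophoblast, decidua and parietal endoderm markers, 0.82.

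The tested aldo-keto reductases had the narrowest range of differences of the 3 families, from −0.0034 to 0.084 over 8 tested members, and in none did the genotypes separate. Akr7a5, which reduces succinic semialdehyde and aflatoxin dialdehyde, read 8.00, 8.08 and 7.93 in the mutants and 7.90, 7.84 and 8.02 in wild type, a difference of 0.084 (SE 0.087). Akr1b8, an aldose reductase-like enzyme, differed by 0.076 (SE 0.17), Akr1e1 by 0.072 (SE 0.13) and Akr1a1, the aldehyde reductase of mouse vitamin C synthesis, by 0.022 (SE 0.11). Akr1a1 read 10.66, 10.96 and 10.97 in the mutants and 10.78, 10.92 and 10.83 in wild type, with an interval of −0.23 to 0.27. Of the 8 Akr1c genes on chromosome 13, 3 were bright enough to test: Akr1c13 differed by 0.063 (SE 0.11), Akr1c12 by 0.046 (SE 0.11) and Akr1c19 by −0.0034. The adjusted limma p of every tested Akr member was 0.999. Akr1b10 differed by 0.0012. Mutant 2 was the highest array for 5 of the 8, and without it the median Akr difference was −0.021.

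The 14 members left out of the main fit were dim in every array, none reaching the limit of 4.29. They were 3 Gst genes (Gstm6, Gsto2 and Gstt4, mean signals of 3.75 to 3.92), 4 Aldh genes (Aldh1a7, Aldh1l2, Aldh3a1 and Aldh8a1, 2.76 to 4.10) and 7 Akr genes (2.14 to 3.13). The Akr genes include the steroid enzymes Akr1c18, which inactivates progesterone, at 2.80, 3.05 and 2.79 in the mutants and 2.76, 2.46 and 2.79 in wild type, and Akr1d1, which reduces bile acid precursors. Aldh1l2, the mitochondrial partner of Aldh1l1, read 3.96, 3.88 and 3.84 in the mutants and 3.62, 3.74 and 3.82 in wild type. Akr1cl read 2.97, 2.96 and 2.89 in the mutants and 2.64, 2.72 and 2.72 in wild type. Neither overlapped between genotypes, and neither was in the main fit. The exact two-sided permutation test gave p = 0.1 for each of Aldh1l2 and Akr1cl. With no filter on dim probe sets, Akr1cl had an unadjusted limma p under 0.05, and 0 probe sets passed the adjusted test.

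A companion list held 42 genes of glutathione synthesis and recycling, peroxidases, membrane-bound glutathione transferases, Nrf2 and its targets, export pumps, alcohol dehydrogenases and the glyoxalase pathway. Of these, 39 were on the array and 31 were tested, with 15 higher and 16 lower in the mutants and a median difference of −0.019. By limma 0 passed the adjusted test, and 2 had an unadjusted p under 0.05, 1 in each direction. These were both enzymes of the glyoxalase pathway, which detoxifies methylglyoxal with glutathione. Glo1, its first enzyme, read 9.07, 9.65 and 9.45 in the mutants and 9.63, 10.23 and 10.29 in wild type, a difference of −0.66 (SE 0.21), with mutant 2 just inside the wild-type range. Hagh, the enzyme that follows, read 8.87, 8.59 and 8.69 in the mutants and 8.38, 8.30 and 8.56 in wild type, a difference of 0.30 (SE 0.11), with no overlap. The adjusted limma p was 0.999 for both. By gene identifier Glo1 and Hagh both lie on chromosome 17, and where their probes lie was not checked. The part of this shared chromosome in their values was not tested. Mgst2, a membrane-bound glutathione transferase, differed by −0.36 (SE 0.16) and the export pump gene Abcc3 by 0.16 (SE 0.088). Nrf2 itself (Nfe2l2) differed by 0.063, its partner Keap1 by −0.044, and the Nrf2 targets Gclc, Gclm, Hmox1, Txnrd1 and Srxn1 by −0.17 to 0.052. Of other such targets, Nqo1 differed by 0.16 (SE 0.20) and Me1, which makes NADPH, by 0.39 (SE 0.29), the highest difference in the list. Me1 read 7.46, 8.07 and 8.43 in the mutants and 7.43, 8.11 and 7.25 in wild type, so its groups overlapped.

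Over the 6 arrays the members whose course was most like the less bright Gstm3 probe set, apart from its partner, were Gstm1 (Pearson r = 0.92), Gsta3 (0.91), Gstm2 (0.85) and Aldh1l1 (0.82). The course of Aldh1b1 was most like those of Gstt1 (0.74), Gstm5 (0.71), Aldh16a1 (0.53) and Gstt2 (0.51), and it ran opposite to Gstm3 (−0.80 for the less bright probe set and −0.74 for the brighter). These values describe 6 arrays that share their genotype groups and mutant 2, and carry no test.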

How the data were processed

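Yolk sac RNA of 3 mutant and 3 wild-type embryos was measured on Mouse Gene 1.0 ST arrays, and groups were taken from the sample titles. The deposited table holds the authors' log2 signals of 35557 probe sets. MAS5 is the only tool in the submitters' processing notes. No source used here states the probe summary, background correction or normalization, and the log2 scale was read from the values (0.66 to 13.7). The number of arrays limits the precision. Gene names came from the platform annotation: 21789 have 1 symbol, 1621 several and 12147 none. All 53 members matched RefSeq genes of GRCm38.p6 by Entrez identifier.

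Named probe sets whose mean reached the 30th percentile were fitted with limma 3.58.1 in R 4.3.3 (lmFit, eBayes, mutant minus wild type), with Benjamini-Hochberg adjustment over all 16387. Single values had exact two-sided permutation tests over 20 assignments. The fit was tested on simulated data. In each family the 6 tested members with the lowest p were named with their difference and its error, beside Gstm3 and Aldh1b1, along with the 4 companion genes of lowest p and others by level. Other genes are named by role and were chosen after their values were seen. Members, lists and tests were chosen with earlier results of these data known. Alternatives were other normalizations, filters, variance models, the methods' t-test, a replicate block, an Xist covariate, arrays left out and mean probe sets.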

Additional observations from a re-analysis of the deposited data

How the results depend on the processing

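Aldh1b1 stayed lower in the mutants under all 18 alternatives, by −1.13 to −0.75, with an unadjusted p of 0.000192 to 0.0131 and an adjusted p of 0.350 to 1.00. The less bright Gstm3 probe set stayed higher, by 0.26 to 0.65, and Gstm5 lower, by −0.46 to −0.23. Filters, the intensity trend, the t-test and the replicate block cannot change a difference or its direction. Of 333 alternative values of named members, 322 kept their direction and 0 passed the adjusted test. The exceptions were small. Aldh3b3 turned to −0.037 with both wild type 2 and the library labelled mutant 1 left out, and to −0.024 with the mean of its probe sets. Without mutant 2, Akr1c13 was −0.013, Akr1b8 −0.059, Akr1c12 −0.041 and Akr1a1 −0.028. Without mutant 3, Akr1e1 was −0.012 and Akr1a1 −0.030. Akr1c13 was −0.0094 without wild type 3, Akr1b8 −0.052 without wild type 2 and Akr1a1 −0.0076 without wild type 1. With 1 array left out, the highest values were 0.12 for Akr1c13, 0.20 for Akr1e1, 0.21 for Akr1b8, 0.13 for Akr1c12 and 0.12 for Akr1a1.

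The count of 1 member at an unadjusted p under 0.05 became 2 with no filter on dim probe sets, 2 with an intensity trend and robust variances, 3 with array weights, 4 with the Xist covariate and 2 with the probe set of lowest p per gene, which was added after the data were seen. It was 1 to 4 when 1 array was left out, and Aldh1b1 was among them each time. The count of 3 members without overlap became 5 with no filter, 1 with the 50th percentile filter, 11 with both wild type 2 and the library labelled mutant 1 left out, and 4 to 13 with 1 array left out, where groups of 2 separate more easily. Of all tested probe sets, 8.52% had no overlap with no filter, 8.73% with the 50th percentile filter, 35.6% with both arrays left out and 14.2% to 27.5% with 1 left out. Of the members these shares were 9.43%, 3.45%, 28.2% and 10.3% to 33.3%. Over all 16387 tested probe sets, 579 had an unadjusted p under 0.05 by limma. This became 542 with the trend and robust variances, 706 with the Xist covariate and 1086 with array weights. Beside these stand 2, 4 and 3 of 39 members. With no filter it was 830 of 23410 probe sets, beside 2 of 53 members. It became 1173 with both arrays left out, where 1 passed the adjusted test. With 1 array left out it was 395 to 1372, the highest without mutant 3, as was the member count, at 4. The methods' t-test gave 627, with 0 after adjustment. The medians of Aldh and Akr members changed sign in some alternatives, by less than the spread between arrays. Causes were not tested.

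Replicate numbers are shared by both genotypes, but deviations of same-numbered arrays correlated at 0.45, 0.15 and −0.11, so the numbers were not taken as pairs. With the number as a block, 2 members had an unadjusted p under 0.05, Aldh1b1 and Gstm5 (0.00746), and 0 probe sets passed the adjusted test.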
